A study of Schizosaccharomyces pombe with 12 samples.

Results

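The 9 genes described here are the iron uptake and iron regulator genes of the fission yeast *Schizosaccharomyces pombe*: *frp1* (SPBC1683.09c), *fio1* (SPAC1F7.08), *fip1* (SPAC1F7.07c), *sib1* (SPAC23G3.02c), *str1* (SPBC4F6.09), *str3* (SPAC1F8.03c), *pcl1* (SPBC1683.10c), *fep1* (SPAC23E2.01) and *php4* (SPBC16E9.01c). They were chosen by name, as genes of iron uptake, storage and control, out of 7004 genes in the table of counts, and all 9 were found by their identifier. The choice was made with earlier results of these data known. Counts of the 9 set beside shares of all genes are therefore a description only. The study deleted *thc1* and *bmc1*, which encode proteins found with telomerase, and sequenced total RNA from 3 separate cultures each of 4 strains. The *thc1* wild type (PP138) is *h*- and carries *his3-D1*, *ura4-D18*, *leu1-32* and *ade6-M216*, and *thc1*Δ (PP1847) was made from it by replacing the open reading frame with *his3*. The *bmc1* wild type (PP1860) and *bmc1*Δ (PP1861, open reading frame replaced with *natMX6*) are *h*+ with *his3-D1*, *ura4-D18* and *leu1-32*, and their *ade6* allele is given as *ade6-M210/ade6-M216*; *bmc1*Δ came from a sporulated diploid. All 12 cultures were grown in rich medium (YES, 250 ml) at 32 °C and collected in log phase. Neither iron nor copper was varied, and each genotype is 1 strain, so that any other difference between strains cannot be told apart from the deletion.

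Library totals ranged from 33565122 to 40328959 counts. The targeted genes followed the labels. *thc1* had 726 to 744 counts in the 3 *thc1*Δ libraries against 1702 or more in the 9 other libraries, and *bmc1* had 552 to 558 counts in the *bmc1*Δ libraries against 864 or more elsewhere. Counts are given per gene, so that where in each gene the remaining reads fell was not examined here. The paper replaced the open reading frames and reports from its coverage tracks that the deleted stretches had no reads. Replicates differed by more than counting error in every group, and the chi-square divided by its degrees of freedom was 2.95 to 6.99 between *thc1* wild type libraries and 6.75 to 39.6 between most libraries of the other groups. Replicate 1 of *thc1*Δ stood apart from replicates 2 and 3, at 68.9 and 65.5.

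Iron enters *S. pombe* by several routes. In the reductive route the cell-surface reductase Frp1 reduces ferric iron, and the multicopper ferroxidase Fio1, which needs copper, hands it to the permease Fip1. In the other route the cell binds iron with the siderophore ferrichrome, made with the peptide synthetase Sib1, and takes up iron-loaded siderophores through transporters of the Str family, of which Str3 also serves heme uptake. The GATA-type repressor Fep1 shuts off uptake genes when iron is plentiful. Php4 joins the CCAAT-binding Php complex when iron is scarce and represses genes whose products use iron. Pcl1 is the transporter that moves iron into the vacuole.

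By the RefSeq annotation of ASM294v3, 5 of the genes lie on chromosome I and 4 on chromosome II. The head-to-head pair *fip1* (chrI:4232998-4234768, minus strand) and *fio1* (chrI:4235072-4237874, plus strand) and the same-strand neighbours *frp1* (chrII:160357-162392) and *pcl1* (chrII:163534-165305, both minus strand) are adjacent. *str3* is at chrI:88201-90289, minus strand, *sib1* at chrI:854453-869684, minus strand, and *fep1* at chrI:442221-445721, plus strand. *str1* is at chrII:2704657-2707648, plus strand, and *php4* at chrII:1915375-1916892, minus strand. All are protein-coding, and all but *sib1*, with 2 exons, have 1 exon.

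Fep1 is known to bind GATA-type elements, here searched as AGATAA or TGATAA on both strands, and the Php complex binds CCAAT. Among the windows from 1000 bases before to 50 after the annotated start (RefSeq, ASM294v3), those of *fio1*, *fip1*, *frp1* and *str1* held 2 GATA-type matches on the same strand whose starts were at most 30 bases apart. Such a pair was present in 6.12% of the 5112 protein-coding genes' windows. *fio1* and *fip1* lie head to head, 303 bases apart, and share the same pair. The other members held no such pair, among them *str3* and *sib1*, whose counts also differed between strains. Whether the pairs bear on the counts was not tested. The 3 different stretches that hold a pair are shown with the GATA-type matches in capitals and 10 bases on either side. They are read 5′ to 3′ on the strand of the first-named gene.
*fio1* and *fip1*, chrI:4234829-4234877, plus strand: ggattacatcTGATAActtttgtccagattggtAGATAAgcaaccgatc
*frp1*, chrII:162457-162495, minus strand: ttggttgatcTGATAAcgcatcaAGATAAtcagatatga
*str1*, chrII:2704197-2704238, plus strand: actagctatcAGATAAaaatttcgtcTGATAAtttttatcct
The matches were separated by 17 bases upstream of *fio1*, 7 upstream of *frp1* and 10 upstream of *str1*. They began 233 and 210 bases before the start of *fio1*, 93 and 80 before *frp1*, and 450 and 434 before *str1*.

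The window from 250 bases before to 50 after the start of *fio1* (chrI:4234822-4235121, plus strand) covers most of the region that *fio1* shares with *fip1* and is shown whole, with the GATA-type matches in capitals.
*fio1* window: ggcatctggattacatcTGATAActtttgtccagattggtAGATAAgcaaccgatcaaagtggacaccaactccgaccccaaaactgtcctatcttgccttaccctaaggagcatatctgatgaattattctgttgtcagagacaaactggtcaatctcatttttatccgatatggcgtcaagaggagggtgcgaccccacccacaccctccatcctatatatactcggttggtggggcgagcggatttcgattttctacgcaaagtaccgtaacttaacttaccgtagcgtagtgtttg
Between the matches, on the other strand, it held a CCAAT match, which overlapped neither. In windows of this length *fio1*, *fip1* and *frp1* held 2 GATA-type matches, *str1*, *pcl1*, *fep1* and *php4* held 1, and *str3* and *sib1* held none. Of all 5112 windows of the same length, 44.1% held at least 1 and 12.2% at least 2. CCAAT was found once for *fio1*, *pcl1* and *php4*, in 2 places for *fip1* and *fep1*, and not for the other 4; 42.2% of all windows held at least 1. A match is a run of letters and not a measured binding site.

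**Figure D1:**
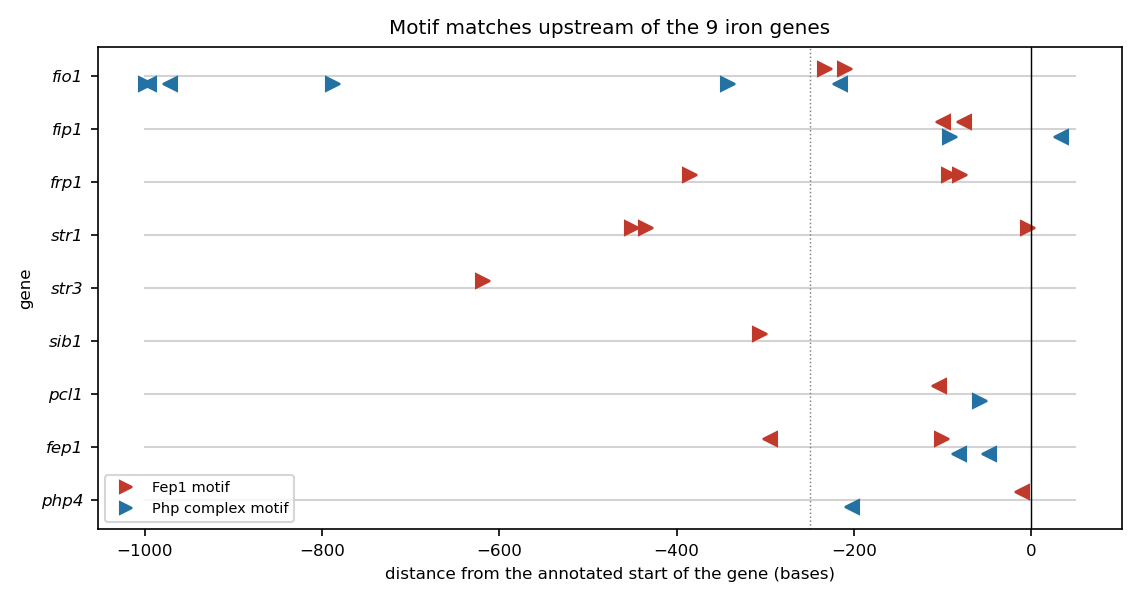
Positions of GATA-type (Fep1, red) and CCAAT (Php complex, blue) matches from 1000 bases before to 50 after the annotated start of each of the 9 genes, with the arrowhead giving the strand relative to the gene and the dotted line marking 250 bases before the start. The paired matches stand 233 and 210 bases before *fio1*, 93 and 80 before *frp1*, and 450 and 434 before *str1*.

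Levels are normalised read counts (CPM), scaled to a common library size by TMM over all 12 libraries, and, where genes are compared with each other, CPM per kilobase of exon (RPKM). In the *thc1* wild type the mean RPKM was highest for *pcl1* (119), followed by *fep1* (57.4), *sib1* (28.0), *fip1* (25.9), *php4* (23.5), *str1* (23.2), *fio1* (22.4), *frp1* (2.57) and *str3* (1.12). The libraries of *php4*, *str1* and *fio1* overlapped in RPKM, whereas the other neighbours in this order did not overlap. The vacuolar transporter and the repressor gene therefore stood at the top, and the reductase gene *frp1* and the Str family gene *str3* at the bottom. *frp1* and *str3* were the lowest of the 9 in every group, at 2.57 to 7.43 and 1.12 to 4.59 mean RPKM.

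The genes differed widely in how much they varied. From the lowest to the highest of the 12 libraries *str3* spanned 8.19-fold, *frp1* 3.93-fold, *str1* 3.21-fold, *fio1* 3.18-fold and *fip1* 2.5-fold. By contrast *sib1* spanned 1.56-fold, *php4* 1.28-fold, *pcl1* 1.24-fold and *fep1* 1.23-fold. The genes for surface transport thus varied most, and the genes for the regulators and the vacuolar transporter least.

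**Figure D2:**
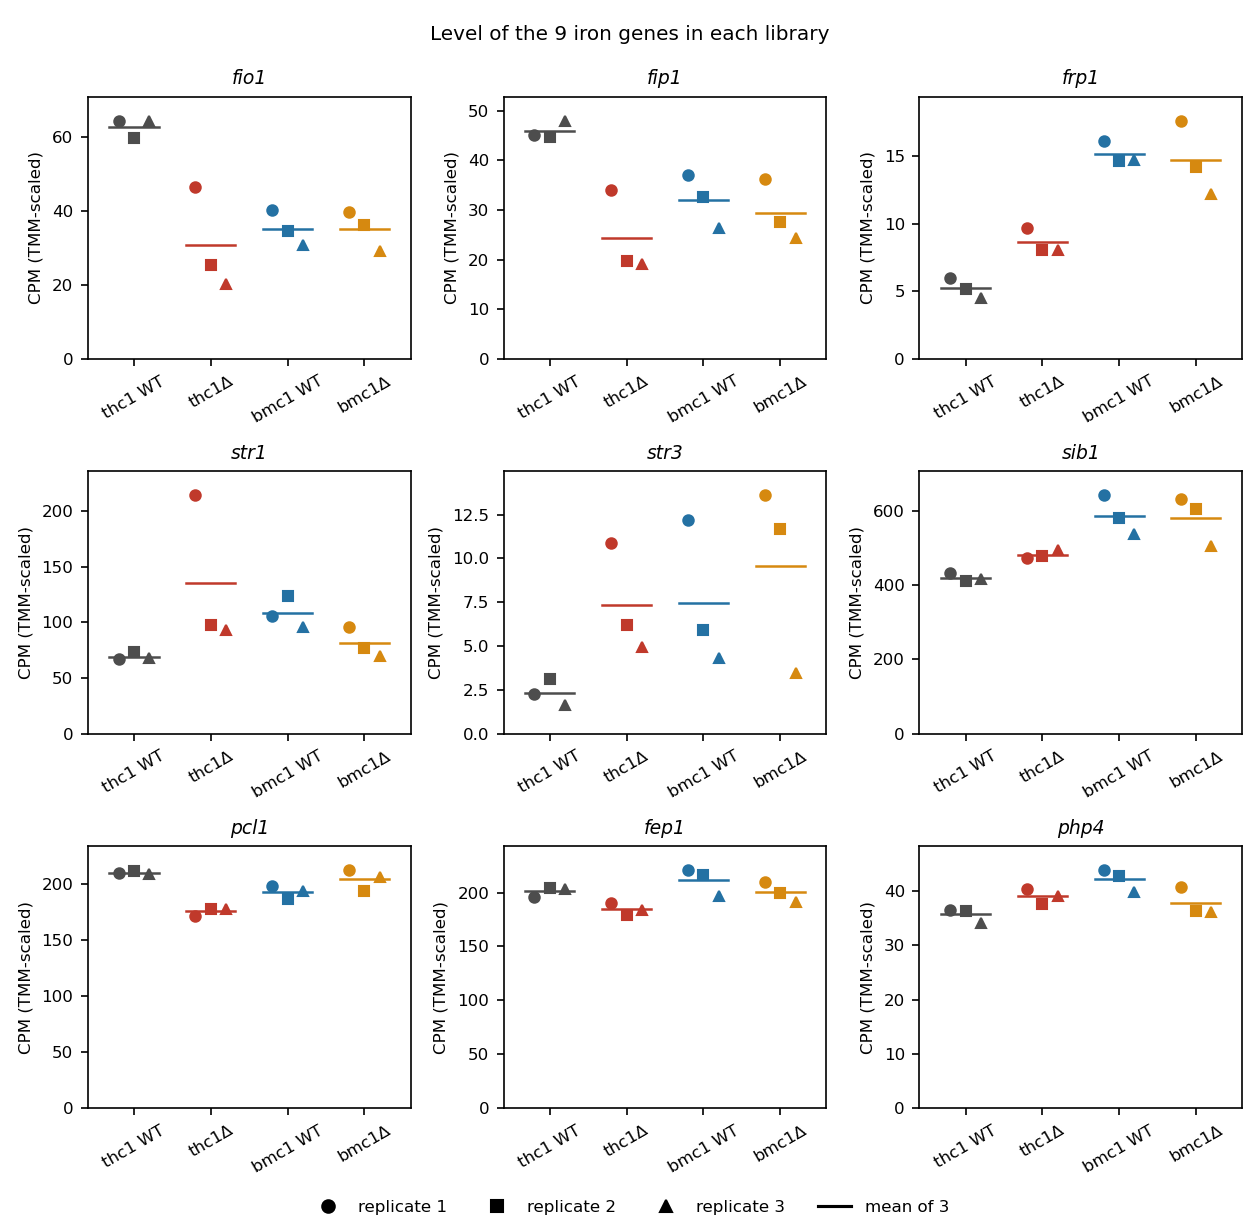
TMM-scaled CPM of each of the 9 genes in each of the 12 libraries, by strain, with replicates 1 to 3 as circles, squares and triangles and a line at the mean of 3. For *fio1* the 3 *thc1* wild type libraries (59.6 to 64.3 CPM) lie above all 9 other libraries, and for *frp1* they (4.48 to 5.99 CPM) lie below all others.

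The first comparison asked which genes changed when *thc1* was deleted. The ferroxidase and permease genes *fio1* and *fip1* fell to 48.7% and 52.7% of the *thc1* wild type, while the reductase gene *frp1* and the transporter gene *str3* rose 1.64-fold and 3.13-fold. *sib1* rose slightly, and *pcl1* and *fep1* fell slightly. At an adjusted *p* below 0.05 (edgeR) 3 of the 9 genes rose and 4 fell, where 10% and 11.1% of the 6235 genes tested rose and fell. With a change of at least 2-fold also required, *str3* rose and *fio1* fell, where 0.754% and 0.449% of genes did. The median size of the log2 fold change was 0.72 over the 9 genes and 0.10 over all genes tested.

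*fio1* stood at 64.3, 59.6 and 64.2 CPM in the *thc1* wild type and at 46.5, 25.3 and 20.2 CPM in *thc1*Δ. The groups did not overlap, and replicate 1 of *thc1*Δ lay between the wild type and the other *thc1*Δ libraries. Its log2 fold change was -1.04 (SE 0.252, adjusted *p* = 0.025, edgeR). As whole cultures were sequenced, fewer cells with the transcript and less of it per cell cannot be told apart. *fip1*, its neighbour and partner, stood at 45.2, 44.7 and 48.0 CPM against 34.0, 19.8 and 19.2 CPM, again with replicate 1 of *thc1*Δ nearest to the wild type. Its log2 fold change was -0.92 (SE 0.191, adjusted *p* = 0.0132, edgeR). Both genes thus went down together, and without replicate 1 of *thc1*Δ the log2 fold changes were -1.47 and -1.24. With a library of the wild type or another *thc1*Δ library left out, the adjusted *p* of *fio1* lay above 0.05 in each of the 5 cases, up to 0.088, and that of *fip1* in 1 of 5, at 0.0594.

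The ratio of *fio1* to *fip1* counts was 1.33 to 1.42 in the *thc1* wild type and 1.05 to 1.37 in *thc1*Δ. It lay between 1.05 and 1.42 in all 12 libraries, while each gene changed 2.5-fold or more. Measured as the root mean square difference of centred log2 CPM over the 12 libraries, the gene most like *fio1* out of 6278 others was *fip1*, and the gene most like *fip1* was *fio1*, at 0.15. The next were the non-coding RNAs SPNCRNA.655 and SPNCRNA.1157 for *fio1*, at 0.28 and 0.30, and SPNCRNA.1551 and SPNCRNA.655 for *fip1*, both at 0.24.

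*frp1* moved the opposite way to the other genes of the reductive route. Its CPM was 5.99, 5.21 and 4.48 in the *thc1* wild type and 9.71, 8.08 and 8.06 in *thc1*Δ, with no overlap. The log2 fold change was 0.72 (SE 0.126, adjusted *p* = 0.00671, edgeR), and the call held with any single library left out. The genes most like *frp1* over the 12 libraries were *meu22*, SPNCRNA.1378 and *hsp3102*, at 0.16, 0.20 and 0.21, and none of the other 8 members was among them.

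Of the Str family genes, *str3* had the larger estimated change and the lower level. It stood at 2.24, 3.14 and 1.66 CPM in the *thc1* wild type and at 10.9, 6.21 and 4.97 CPM in *thc1*Δ. The groups did not overlap, and the highest *thc1*Δ library was again replicate 1. The log2 fold change was 1.65 (SE 0.329, adjusted *p* = 0.0117, edgeR). Left out singly, replicates 1 and 3 of the wild type took the adjusted *p* to 0.0548 and 0.0561.

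*str1*, which encodes a siderophore transporter, stood at 66.7, 73.0 and 68.1 CPM against 214, 97.8 and 92.9 CPM. Every *thc1*Δ library was above every wild type library, and replicate 1 was 2.24-fold above the mean of the other *thc1*Δ libraries. The log2 fold change was 0.95 with a 95% interval of 0.29 to 1.62 and did not pass the test (adjusted *p* = 0.0505, edgeR). Without replicate 1 it was smaller, at 0.46, and passed (adjusted *p* = 7.89e-06, edgeR). It also passed at 1.14 and 1.16 without replicate 2 or 3 of *thc1*Δ and at 0.96 with a single model over the 12 libraries (adjusted *p* = 0.0473, 0.0386 and 0.0246, edgeR). Replicate 1 of *thc1*Δ was also 2.04-fold, 1.74-fold and 1.95-fold above the mean of replicates 2 and 3 for *fio1*, *fip1* and *str3*, and within 1.2-fold for the other 5 genes.

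*sib1*, the ferrichrome synthetase gene, has an annotated exon length of 15002 bases and took 412 to 433 CPM in the *thc1* wild type and 472 to 494 CPM in *thc1*Δ. The groups did not overlap, at a log2 fold change of 0.19 (SE 0.0379, adjusted *p* = 0.0105, edgeR). *pcl1* went from 210, 212 and 209 CPM to 172, 178 and 178 CPM, a log2 fold change of -0.26 (SE 0.0342, adjusted *p* = 0.00185, edgeR). *fep1* went from 196, 204 and 203 CPM to 190, 179 and 184 CPM, a log2 fold change of -0.13 (SE 0.0363, adjusted *p* = 0.042, edgeR). *php4* stood at 34.2 to 36.6 CPM and at 37.7 to 40.4 CPM and did not pass the test, at a log2 fold change of 0.13 (95% interval 0.02 to 0.23). None of the groups of *sib1*, *pcl1*, *fep1* and *php4* overlapped. With a single model over the 12 libraries the adjusted *p* was 0.106 for *sib1*, 0.109 for *fep1* and 0.0509 for *str3*, and leaving out 1 library ended the *fep1* call in 5 of 6 cases and the *sib1* call in 2 of 6.

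**Figure D3:**
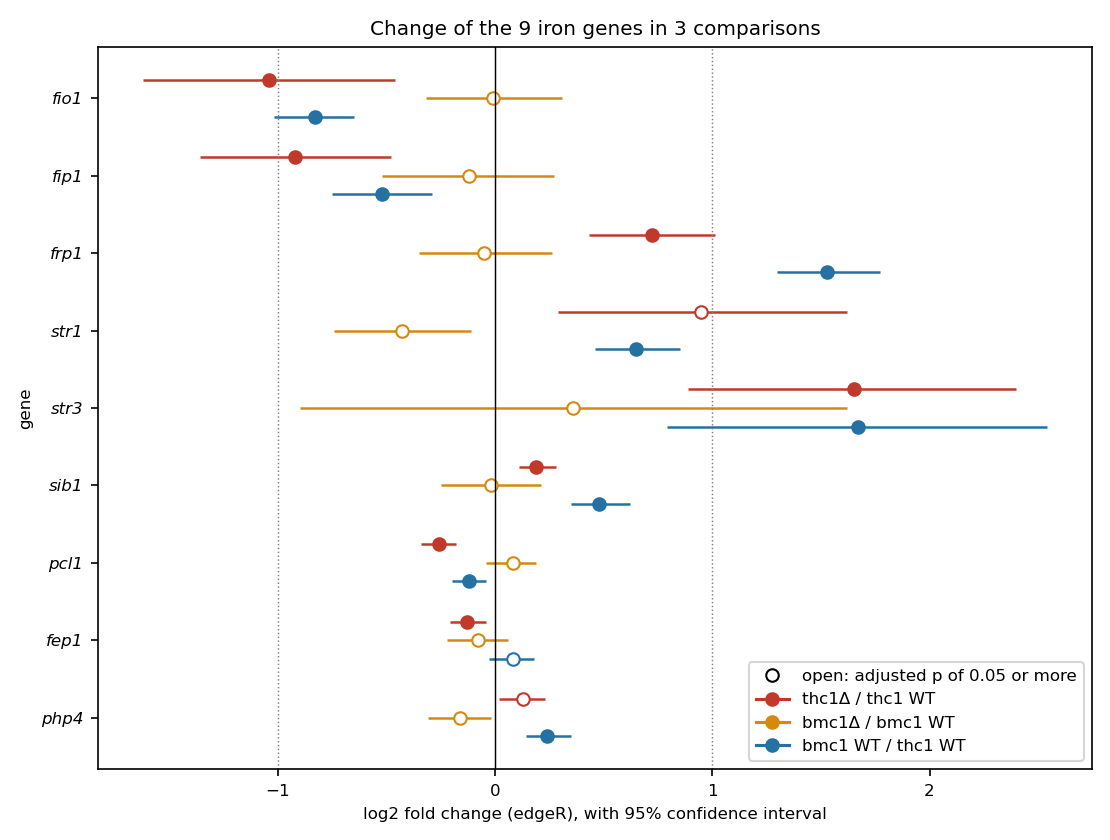
Log2 fold change of each of the 9 genes, with its 95% confidence interval, for *thc1*Δ against the *thc1* wild type (red), *bmc1*Δ against the *bmc1* wild type (orange) and the wild type of *bmc1* against that of *thc1* (blue); open points have an adjusted *p* of 0.05 or more and dotted lines mark 2-fold. All 9 orange points are open, while 7 red and 8 blue points are filled. The fits shown did not pair libraries by replicate number.

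The second comparison asked the same of *bmc1*. Without pairing by replicate number, none of the 9 genes passed the test in *bmc1*Δ, with edgeR or with DESeq2. In this edgeR test 2 of the 9, *str1* and *php4*, had an unadjusted *p* below 0.05. With the replicate number as a block *str1* passed, as given below. Few genes of any kind were called here: 0.016% of 6232 genes rose and 0.0321% fell at an adjusted *p* below 0.05, and 0% did either at 2-fold or more. The median size of the log2 fold change was 0.08 over the 9 genes and 0.06 over all.

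*fio1* stood at 40.2, 34.6 and 30.8 CPM in the *bmc1* wild type and at 39.7, 36.3 and 29.2 CPM in *bmc1*Δ, a log2 fold change of -0.01 with a 95% interval of -0.32 to 0.31. *frp1* stood at 16.1, 14.6 and 14.7 CPM against 17.6, 14.2 and 12.2 CPM, with an interval of -0.35 to 0.26. Both pairs of groups overlapped. The interval for *sib1* was -0.25 to 0.21, for *fip1* -0.52 to 0.27, for *pcl1* -0.04 to 0.19 and for *fep1* -0.22 to 0.06. *str3* stood at 12.2, 5.89 and 4.3 CPM against 13.6, 11.7 and 3.48 CPM, and its interval of -0.90 to 1.62 leaves room for a change of over 2-fold upward.

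*str1* was the member nearest to a call. It stood at 106, 124 and 95.6 CPM in the *bmc1* wild type and at 96.1, 77.2 and 70.1 CPM in *bmc1*Δ, and the highest *bmc1*Δ library lay just above the lowest wild type library. Its log2 fold change was -0.43 (SE 0.134, unadjusted *p* = 0.0144, adjusted *p* = 0.636, edgeR). Same-numbered cultures of these strains deviated together, clearly so for replicate 1 only. A fit blocked on the replicate number gave *str1* an adjusted *p* of 0.0372 (edgeR). That fit called 200 of the 6232 genes, against 3 without the block. Between same-numbered cultures *str1* was lower in *bmc1*Δ in 3 of 3 pairs, by log2 differences of -0.14, -0.68 and -0.45. *fip1*, *fep1* and *php4* were also lower in all 3 pairs and did not pass the test in either fit.

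Among the 9 genes, replicate 1 was the highest of 3 in both strains for 8, and replicate 3 the lowest in both for 7. How often this order held over all genes was not counted, so that it cannot be called particular to the iron genes. For *str3* replicate 1 was 2.84-fold above replicate 3 in the *bmc1* wild type and 3.91-fold above it in *bmc1*Δ, while the fitted difference between the strains was 1.28-fold. For *sib1* the same ratios were 1.2 and 1.25, and for *fio1* 1.31 and 1.36.

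**Figure D4:**
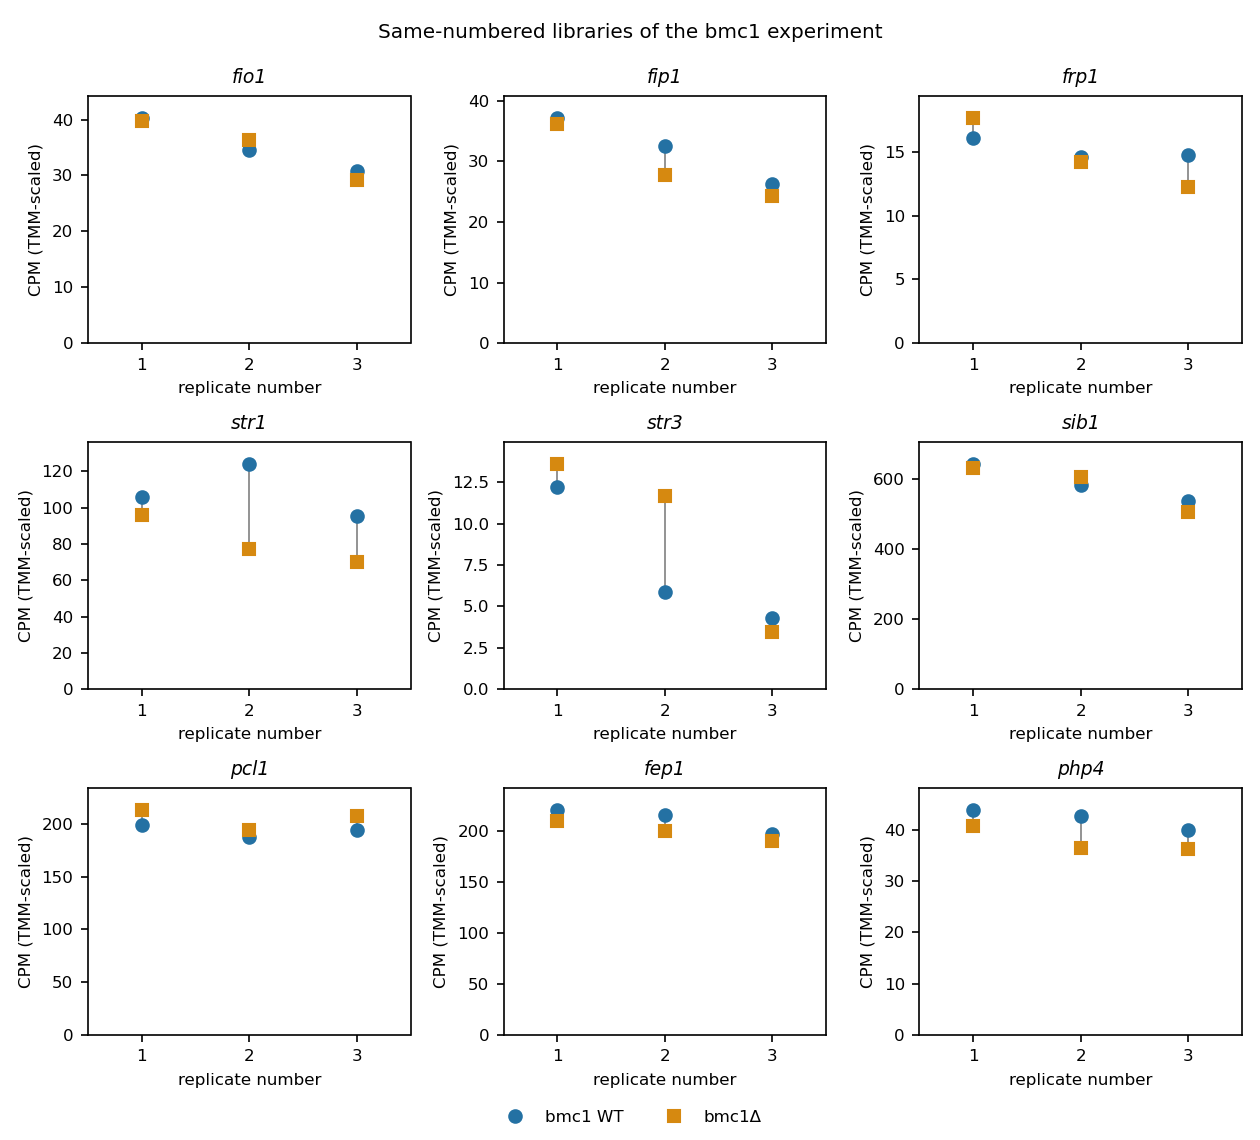
TMM-scaled CPM of each of the 9 genes in the *bmc1* wild type (blue circles) and *bmc1*Δ (orange squares), with same-numbered cultures joined by a line. *str1* is lower in *bmc1*Δ in all 3 pairs, and for *str3* replicate 1 lies above replicate 3 in both strains.

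The wild types differed from each other. These strains have opposite mating types and were prepared for different deletions, and the cause of their differences cannot be told apart. At an adjusted *p* below 0.05, 5 of the 9 members were higher and 3 lower in the wild type of *bmc1* than in that of *thc1*, where 22.2% and 19.3% of 6232 genes were. At 2-fold or more 2 members, *frp1* and *str3*, were higher and 0 were lower, where 1.85% and 0.963% of genes were. DESeq2 called the same numbers.

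*frp1* had 2.9 times as much signal in the *bmc1* wild type, at a log2 fold change of 1.53 (SE 0.103, adjusted *p* = 1.83e-05, edgeR). *str3* was higher by 1.67 (SE 0.385, adjusted *p* = 0.00921, edgeR), *str1* by 0.65 and *sib1* by 0.48 on the log2 scale. *php4* was higher by 0.24. On the other side *fio1* was lower, with a log2 fold change of -0.83 (SE 0.0816, adjusted *p* = 0.000133, edgeR), as were *fip1* at -0.52 and *pcl1* at -0.12. *fep1*, the gene of the repressor, did not pass the test, at 0.08 (95% interval -0.03 to 0.18). In a single model over the 12 libraries the adjusted *p* was 0.0652 for *fip1* and 0.0721 for *str1*, and leaving out 1 library ended the *pcl1* call in 4 of 6 cases.

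Side by side, *thc1*Δ and the *bmc1* wild type stood on the same side of the *thc1* wild type for *fio1*, *fip1*, *frp1*, *str1*, *str3*, *sib1*, *pcl1* and *php4*; since both comparisons use the same *thc1* wild type libraries, the likeness is a description only. Compared directly, 0 of the 9 genes differed 2-fold or more between *thc1*Δ and the *bmc1* wild type with edgeR or DESeq2, where 0.449% of 6235 genes were higher and 0.994% lower in *thc1*Δ, and 4 members had an unadjusted *p* below 0.05. At an adjusted *p* below 0.05 alone 0 were higher and 2 lower, where 5.28% and 8.26% of genes were. The 2 were *frp1*, at a log2 fold change of -0.82 (SE 0.0991, adjusted *p* = 0.0025, edgeR), and *sib1*, at -0.29 (SE 0.0717, adjusted *p* = 0.036, edgeR). Leaving out 1 library kept the *frp1* call in 6 of 6 cases and the *sib1* call in only 1 of 6. The largest adjusted *p* of *sib1* in these cases was 0.106 (edgeR). For *frp1*, then, the 4 strains fell at 3 levels that did not overlap, lowest in the *thc1* wild type, next in *thc1*Δ and highest in both *bmc1* strains. For *str3* the difference was -0.02 with an interval of -0.96 to 0.91, and for *fio1* -0.20 with an interval of -0.83 to 0.42. Without replicate 1 of *thc1*Δ, *fio1* and *fip1* were lower in *thc1*Δ than in the *bmc1* wild type by -0.63 and -0.71 on the log2 scale (adjusted *p* = 0.0144 and 0.00883, edgeR).

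The effects of the deletions were also set against each other, as the effect of *thc1*Δ minus that of *bmc1*Δ over 12 libraries. The difference passed the test for 4 of the 9 genes, 3 above 0 and 1 below, where 4.95% and 5.48% of 6279 genes were. It was 1.38 for *str1* (SE 0.367, adjusted *p* = 0.0336, edgeR), 0.76 for *frp1* (SE 0.197, adjusted *p* = 0.0304, edgeR), 0.29 for *php4* (adjusted *p* = 0.0371, edgeR) and -0.34 for *pcl1* (SE 0.0576, adjusted *p* = 0.00418, edgeR). For all 4 the estimates of the separate effects had opposite signs, of which that of *frp1* in *bmc1*Δ was close to 0, at -0.05. *fio1*, at -1.03, and *fip1*, at -0.80, did not pass (adjusted *p* = 0.0692 and 0.103, edgeR). With the replicate number as a block both passed (adjusted *p* = 0.0265 and 0.0358, edgeR). That block gave both experiments a common replicate effect, although same-numbered *thc1* libraries did not deviate together (correlations of -0.08 to 0.00). *str3*, at 1.29, had an interval of -0.29 to 2.86. Leaving out 1 library at a time left between 1 and 6 members called, with *pcl1* called each time, *str1* and *frp1* in 6 of 12 cases and *php4* in 4.

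Among 6 other uptake genes (*str2*, *sib2*, *sib3*, *abc3*, *shu1* and *frp2*), 2 rose and 0 fell of 5 tested in *thc1*Δ, 3 were higher and 1 lower of 6 in the *bmc1* wild type than in the *thc1* wild type, and 0 passed in *bmc1*Δ. Over all genes tested, 10% rose and 11.1% fell in *thc1*Δ, and 22.2% were higher and 19.3% lower between the wild types. The ornithine hydroxylase gene *sib2*, which acts before Sib1 and lies 1108 bases from it in the opposite direction, rose by 0.26 in *thc1*Δ (adjusted *p* = 0.0492, edgeR) and was higher by 0.46 in the *bmc1* wild type. The vacuolar ABC transporter gene *abc3* rose by 0.18 and was higher by 0.66. The siderophore gene *sib3* had a log2 fold change of -0.23 in the *bmc1* wild type and did not pass in *thc1*Δ, and *str2* and *frp2* passed in neither comparison.

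The heme uptake gene *shu1* lies next to *str3*, on the same strand. It had 4, 7 and 4 counts in the *thc1* wild type, 3, 4 and 4 in *thc1*Δ, 51, 36 and 36 in the *bmc1* wild type and 86, 137 and 22 in *bmc1*Δ. All 6 libraries of the *thc1* strains were thus at 7 counts or fewer and all 6 of the *bmc1* strains at 22 or more. The low counts kept *shu1* out of the *thc1*Δ test. *str3*, by contrast, was higher in *thc1*Δ. *hhy1* (SPAC1F8.04c), on the other side of *str3*, stood at 1.21 to 1.45 CPM in the *thc1* wild type and at 3.73, 7.27 and 6.66 CPM in *thc1*Δ, a log2 fold change of 2.18 (SE 0.268, adjusted *p* = 0.00136, edgeR). For *hhy1* replicate 1 of *thc1*Δ was the lowest of its group, whereas for *str3* it was the highest. Over all 14 protein-coding neighbours that are not members themselves, 2 rose (*hhy1* and *sib2*) and 2 fell (*dal2* and *fmo1*) of 13 tested in *thc1*Δ, and the other 9 did not pass, near the 10% and 11.1% over all genes.

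Of 5 genes of copper supply, on which Fio1 depends, 3 rose in *thc1*Δ and 0 fell, where 10% and 11.1% of all genes did. The list was chosen with earlier results of these data known, so that its counts are a description only. Cuf1 is the copper-sensing factor that turns on *ctr4* and *ctr5*, the genes of the copper transporter, when copper is scarce, and is known to lower *fio1* and *fip1* under the same condition. *ctr4* stood at 134, 139 and 131 CPM in the *thc1* wild type and at 563, 684 and 628 CPM in *thc1*Δ, a log2 fold change of 2.21 (SE 0.0742, adjusted *p* = 3.54e-06, edgeR). *ctr5* rose by 1.62 and the vacuolar copper transporter gene *ctr6* by 0.44, while *cuf1* itself was at 0.04 and *ccc2* at -0.11 and neither passed. Between the wild types 4 of the 5 were higher in that of *bmc1*, where 22.2% of all genes were, with *ctr4* at 2.05 and *ctr5* at 1.19, and in *bmc1*Δ 0 of 5 passed, with values of -0.03 to 0.06. The copper transporter genes were therefore low in the strain in which *fio1* and *fip1* were high. The reductase gene *frp1*, of the same uptake route, was low in that strain as well. Its log2 fold change was 0.72 in *thc1*Δ and 1.53 in the *bmc1* wild type. Unlike *fio1*, *ctr4* in replicate 1 of *thc1*Δ lay close to the other *thc1*Δ libraries, and whether copper supply plays a part in the *fio1* result was not tested.

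Of 7 partner genes of the regulators (*grx4*, *fra2*, *tup11*, *tup12*, *php2*, *php3*, *php5*), 1 rose and 1 fell in *thc1*Δ: *php5*, a subunit of the CCAAT-binding complex, by 0.20, and *grx4*, the glutaredoxin that senses iron for Fep1 and Php4, at -0.14. Such counts lie near the shares of 10% and 11.1% over all genes. Of 14 genes of iron-using proteins, 1 rose and 2 fell in *thc1*Δ, and 4 were higher and 4 lower in the *bmc1* wild type than in the *thc1* wild type, near the shares over all genes in both comparisons. *isu1*, the scaffold on which iron-sulfur clusters are built, went from 125, 128 and 127 CPM to 179, 171 and 167 CPM in *thc1*Δ, a log2 fold change of 0.44 (adjusted *p* = 0.00022, edgeR). The succinate dehydrogenase gene *sdh1* and the leucine synthesis gene *leu2* were at -0.28 and -0.23. The median log2 fold change over the 14 genes was -0.03 in *thc1*Δ. In *bmc1*Δ 0 of the 7 and 0 of the 14 passed.

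**Figure D5:**
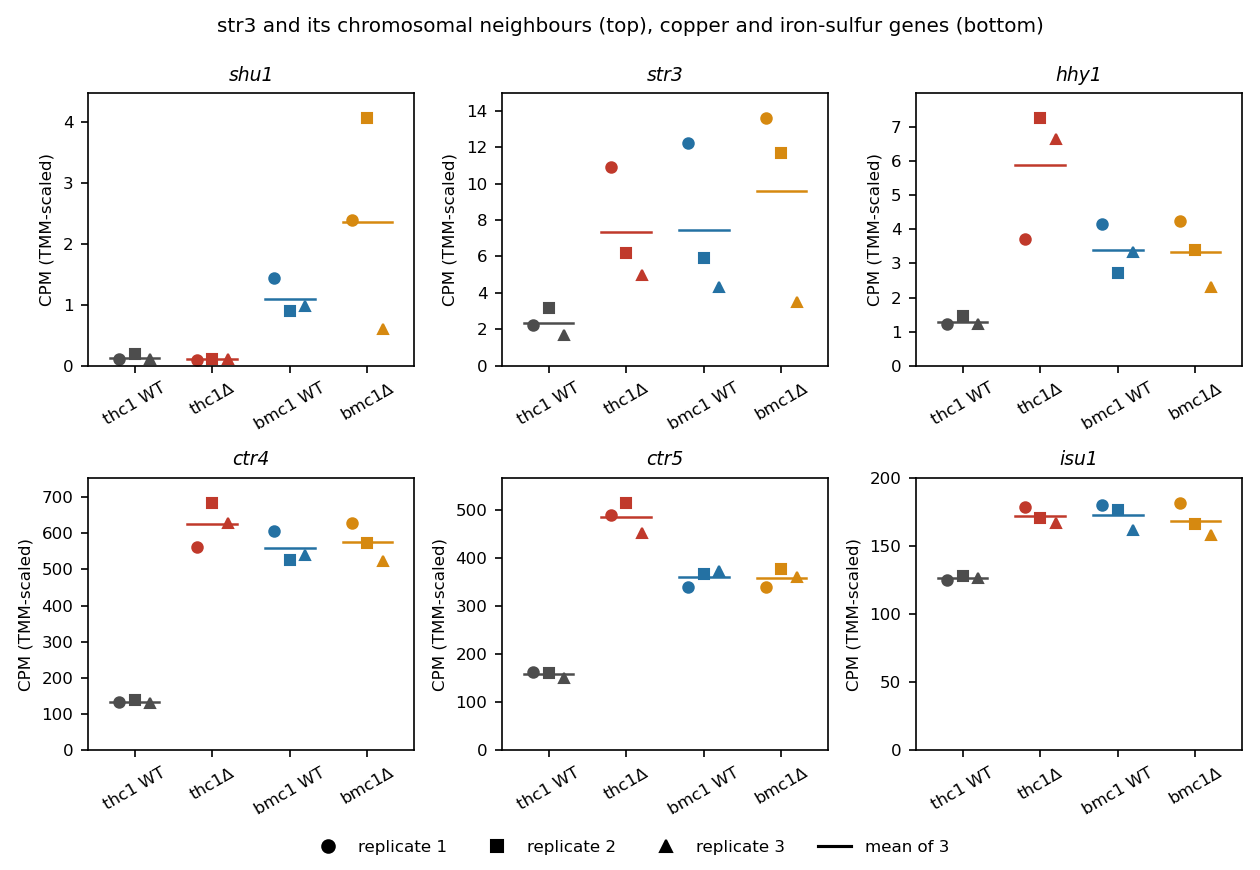
TMM-scaled CPM in each of the 12 libraries, by strain, for *str3* with its neighbours *shu1* and *hhy1* (top) and for the copper transporter genes *ctr4* and *ctr5* and the iron-sulfur scaffold gene *isu1* (bottom), with a line at the mean of 3. *shu1* is near 0 in both *thc1* strains, and *ctr4* is lowest in the *thc1* wild type, at 131 to 139 CPM.

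Antisense transcripts are annotated over 7 of the 9 genes, all but *fip1* and *frp1*. Of these only SPNCRNA.100, which overlaps 203 bases of *pcl1* on the other strand, was among the counted genes. It had 6, 12 and 12 counts in the *thc1* wild type, 68, 50 and 51 in *thc1*Δ, 79, 68 and 51 in the *bmc1* wild type and 63, 64 and 41 in *bmc1*Δ. Its log2 fold change was 2.54 in *thc1*Δ (SE 0.282, adjusted *p* = 0.000818, edgeR) and 2.71 in the *bmc1* wild type, where *pcl1* was at -0.26 and -0.12. The sources used here do not say whether the counting used the strand, and reads of *pcl1* and SPNCRNA.100 may not be separated where they overlap. Over the 12 libraries SPNCRNA.100 was also the gene most like *str3*, at a root mean square difference of 0.57. The hexose transporter gene *ght5* and SPNCRNA.1364 followed, both at 0.58, and the member *frp1* ranked 8 at 0.62. These differences are larger than the 0.15 between *fio1* and *fip1*. For *str1* the nearest were *gsf2*, SPAC1093.07 and SPNCRNA.604, at 0.25, 0.26 and 0.26.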

How the data were processed

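Total RNA was depleted of ribosomal RNA, made into stranded libraries and sequenced as single-end reads by the authors, with all 12 libraries pooled. The authors aligned reads to ASM294v2 with STAR 2.5.2b and deposited whole-number counts per gene, without normalization. The sources used here do not give the counting tool, its annotation, the handling of reads with several matches or the use of strand; DESeq2 1.22.2 is listed in the submitters' processing notes.

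Groups came from the sample labels and genotypes from the study's strain list. Gene names, lengths, neighbours and sequences came from RefSeq (ASM294v3), where 6846 genes matched by locus tag, 15 by synonym and 143 not at all; no coordinate was carried between builds. The files hold no column of another sample (0). Counts were tested with edgeR 4.0.16 (quasi-likelihood test, TMM, filterByExpr with a minimum count of 10) in R 4.3.3, on the 6 libraries of a comparison or on 12 for the difference of effects, with Benjamini-Hochberg adjustment over all genes tested. Genes were called at an adjusted *p* below 0.05, and also with at least 2-fold change. SE is the size of the log2 fold change divided by the square root of F, and intervals are 95%. The test was checked on simulated counts. All 9 members passed the filter. Alternatives were DESeq2 1.42.0, RLE size factors, library totals, no filter, a mean count of at least 50, a single model over 12 libraries, the replicate number as a block, no fold limit, and each library left out. Figures were drawn with matplotlib 3.10.9.

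Same-numbered libraries of the *bmc1* strains deviated together. Numbers paired them only in the fit with the replicate block and in the comparison of same-numbered cultures. All other fits, among them the main test of *bmc1*Δ, left the pairing out. The correlations of deviations over genes were 0.48, 0.28 and 0.23 for replicates 1, 2 and 3. Replicates 2 and 3 also correlated across numbers, at 0.17 and 0.2, so that the pairing was clear for replicate 1 only. Same-numbered libraries of the *thc1* strains did not deviate together (-0.08 to 0.00). The labels do not say what a number shares. Named genes were the members, the nearest protein-coding neighbours, the genes of fixed lists and, for members spanning over 1 in log2 CPM, the 3 most alike genes. The members, lists and motifs were chosen with earlier results of these data known.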

Additional observations from a re-analysis of the deposited data

Results flagged for a closer look

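The effect of *thc1*Δ minus that of *bmc1*Δ differed from 0 in the test of the difference itself for 4 genes. For *str1* it was 1.38 on the log2 scale, for *frp1* 0.76, for *php4* 0.29 and for *pcl1* -0.34. With replicate 1 of *thc1*Δ left out, *fio1* at -1.46 and *fip1* at -1.11 passed as well (adjusted *p* = 0.000855 and 0.0062, edgeR).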

How the results depend on the processing

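For *thc1*Δ against the *thc1* wild type, 2 members passed at 2-fold or more, 1 with a single model over 12 libraries, 7 with no fold limit, and 0 to 3 with 1 library left out. Between the wild types the count at 2-fold or more was 2, also with any library left out, and without a fold limit it was 8. For *thc1*Δ against the *bmc1* wild type the count was 0 at 2-fold or more and 2 without a fold limit. For the difference of effects it was 4, and 1 to 6 with 1 library left out. With the replicate block 6 passed, although same-numbered *thc1* libraries did not deviate together. In *bmc1*Δ 0 passed at 2-fold in every setting; at an adjusted *p* alone, *str1* passed with the replicate block (0.0372). That block lowered the *thc1*Δ count at an adjusted *p* alone from 7 to 6, losing *fep1* (0.104). Between the wild types it lost *pcl1* (0.0644), and *sib1* in *thc1*Δ against the *bmc1* wild type (0.114).

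Over all genes, those past an adjusted *p* of 0.05 numbered 1313 in *thc1*Δ, and 577 to 2555 with 1 library left out. In *bmc1*Δ they numbered 3, 30 with DESeq2 and 200 with the replicate block.

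Signs turned only for members that had not passed. In *bmc1*Δ *fio1* was 0.01 with library totals, and with 1 library left out *fio1* ranged from -0.10 to 0.11, *fip1* from -0.30 to 0.00, *frp1* from -0.20 to 0.07 and *sib1* from -0.08 to 0.07. In *thc1*Δ against the *bmc1* wild type *str3* was 0.03 with the replicate block, and with 1 library left out *fio1* ranged from -0.63 to 0.02, *str1* from -0.19 to 0.51 and *str3* from -0.41 to 0.51. For *fep1* in the difference of effects the range was -0.08 to 0.00. The causes were not tested. Counting error was highest for *str3* and *frp1*, with a coefficient of variation of up to 10.7% and 7.16% per library, and 3 cultures per strain limit every interval.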
